A study of Homo sapiens with 4 samples.

Results

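Collagen chains other than those of type IV were followed across 4 arrays of SCP2 cells, which were derived from the human breast cancer line MDA-MB-231 and home to bone. They were taken as every probe set annotated to exactly 1 gene whose symbol reads COL, a number, A and a number, leaving out the collagen IV chains and antisense or pseudogene symbols. This gave 93 of the 54675 probe sets on the array, belonging to 37 genes. The 4 groups were cells labelled as overexpressing DLC1 and treated with TGF-beta, cells labelled as overexpressing DLC1 without TGF-beta, vector control cells with TGF-beta, and vector control cells without it. DLC1 encodes a GTPase-activating protein, and the study's title concerns its part in bone metastasis. Each group was 1 array, so no group has a replicate, differences carry no p-value and no error, and precision is limited by having 4 arrays. The construct's promoter, whether the cells were a clone or a pool, and the dose and duration of TGF-beta are not stated in the sources used here.

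Collagens are the main structural proteins of the extracellular matrix. A collagen molecule is a trimer of alpha chains that wind around each other along stretches of Gly-X-Y repeats, and the chains come from separate genes, so that collagen I usually needs COL1A1 and COL1A2 together and the common form of collagen VI needs COL6A1, COL6A2 and COL6A3. Fibrillar collagens build the banded fibrils of bone, skin and tendon, fibril-associated collagens decorate them, collagen VII anchors epithelial basement membranes, and transmembrane collagens sit on the cell surface. TGF-beta, which bone holds in latent form, is known as an inducer of matrix genes through SMAD transcription factors.

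Levels are the authors' intensities on a linear scale in arbitrary units, and each difference is the log2 of a ratio of 2 such intensities. Levels of different probe sets cannot be compared with each other. Each gene stands for its brightest probe set, by the mean of the 4 arrays, and was kept where at least 1 array reached 0.38, the overall median intensity. Of the 37 chain genes, 18 were kept, and 36 of the 93 probe sets passed the same filter on their own. A chain counted as higher or lower from 2-fold upward, that is from 1 upward or -1 downward on the log2 scale. The 4 arrays had median intensities of 0.38 to 0.39. In its brightest probe set, 210762_s_at, the targeted gene DLC1 read 3.64 in the array labelled DLC1 and 2.51 in the vector array with TGF-beta, and 3.38 and 1.77 without it, short of 2-fold in both. Its set 224822_at went the other way, with 1.69 in the array labelled DLC1 and 2.41 in the vector array with TGF-beta, and 1.44 and 1.79 without it. The transcript thus did not settle the labels, and the arrays are called labelled DLC1 throughout.

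The cell type was looked at through fixed marker genes. The mesenchymal-type breast cancer markers VIM, CD44, AXL and CAV1 read between 44.7 and 205.05 on all 4 arrays. The keratins listed as present read between 56.83 and 65.09 for KRT18 and between 6.25 and 8.06 for KRT8. Of the markers listed as absent from such cells, PGR and CDH1 stayed under 0.38, while ESR1 reached 0.46, ERBB3 2.03 and EPCAM 7.45. Of 6 fibroblast or stromal markers, 3 were kept, none differed by 2-fold, and the summed intensity of the 6 was 2.07 with TGF-beta and 1.81 without it in cells labelled DLC1, and 1.99 with TGF-beta and 2.03 without it in vector cells. The fibroblast proteoglycan genes DCN and LUM stayed at 0.31 or less. Of the measured markers of other types, 2 of 5 endothelial, 1 of 3 leukocyte, 2 of 4 osteoblast and 3 of 4 chondrocyte genes were kept. The highest values in these lists were 0.96 for KDR, 1.67 for CD14, 5.97 for RUNX2 and 23.61 for SOX9. The log2 gap of the 3' over the 5' control probe set of beta-actin, which reflects RNA integrity, was 3.03 with TGF-beta and 3.11 without it in the arrays labelled DLC1, and 2.83 with TGF-beta and 3.26 without it in the vector arrays. The same gap for GAPDH was 0.39 with TGF-beta and 0.35 without it in the arrays labelled DLC1, and 0.38 and 0.39 in the vector arrays. The part of these gaps in the results was not tested.

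With TGF-beta, 4 chain genes were at least 2-fold higher in both backgrounds: COL1A1, which encodes the alpha 1 chain of collagen I, COL6A3, the alpha 3 chain of collagen VI, COL7A1, the chain of collagen VII, and COL5A1, a chain of the minor fibrillar collagen V. COL27A1, a fibrillar collagen known from cartilage, passed 2-fold in the arrays labelled DLC1 and fell short of it in the vector arrays. No kept chain was 2-fold lower. In the arrays labelled DLC1 this makes 5 of 18 kept chains higher, where 0.792% of all 13137 kept genes were, and in the vector arrays 4 of 18, where 1.21% were. In the other direction the share of all kept genes was 0.107% and 0.693%. All 5 chains were above the filter on every array, so none was kept only through its value with TGF-beta.

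COL1A1 read 7.27 with TGF-beta and 1.0 without it in cells labelled DLC1, a 7.27-fold difference. In vector cells it read 9.70 with TGF-beta and 0.94 without it, a 10.3-fold difference. Both treated arrays lay far above both untreated arrays, and of all kept genes only 6 had a bigger difference in the arrays labelled DLC1 and 3 in the vector arrays. On the log2 scale the differences were 2.86 and 3.37. Rounding of the deposited values to 2 decimals allows 2.85 to 2.87 and 3.36 to 3.38. These sizes are those of 1 probe set, 1556499_s_at, and rounding is not their only uncertainty. With the 4 kept sets of COL1A1 averaged, both differences were smaller, though past 2-fold. That average includes 202310_s_at, which was kept only through the treated arrays where it is high. It also includes 202312_s_at, which was kept only through the treated array labelled DLC1, where it is high. That the average passed 2-fold therefore adds no support, and the call for COL1A1 rests on 1556499_s_at alone.

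COL6A3, which is measured by 1 probe set, read 4.66 with TGF-beta and 0.91 without it in cells labelled DLC1, and 5.75 with TGF-beta and 0.94 without it in vector cells. The folds were 5.12 and 6.12, and the treated and untreated arrays did not overlap. COL7A1 read 3.82 with TGF-beta and 1.22 without it in cells labelled DLC1, a fold of 3.13, and 5.30 with TGF-beta and 1.01 without it in vector cells, a fold of 5.25. Again both treated arrays lay above both untreated ones.

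COL5A1 read 5.83 with TGF-beta and 2.04 without it in cells labelled DLC1, against 5.52 with TGF-beta and 1.62 without it in vector cells. These are folds of 2.86 and 3.41. COL27A1 read 2.48 with TGF-beta and 1.22 without it in cells labelled DLC1, a 2.03-fold difference, and 4.28 with TGF-beta and 2.31 without it in vector cells, a 1.85-fold difference. Both treated arrays lay above both untreated ones, but the treated array labelled DLC1 was close to the untreated vector array. COL27A1 was under 2-fold in the arrays labelled DLC1 when its probe sets were averaged (0.67 on the log2 scale), with an offset of 0.1 (0.97) or with arrays centred on housekeeping genes (0.84).

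**Figure D1:**
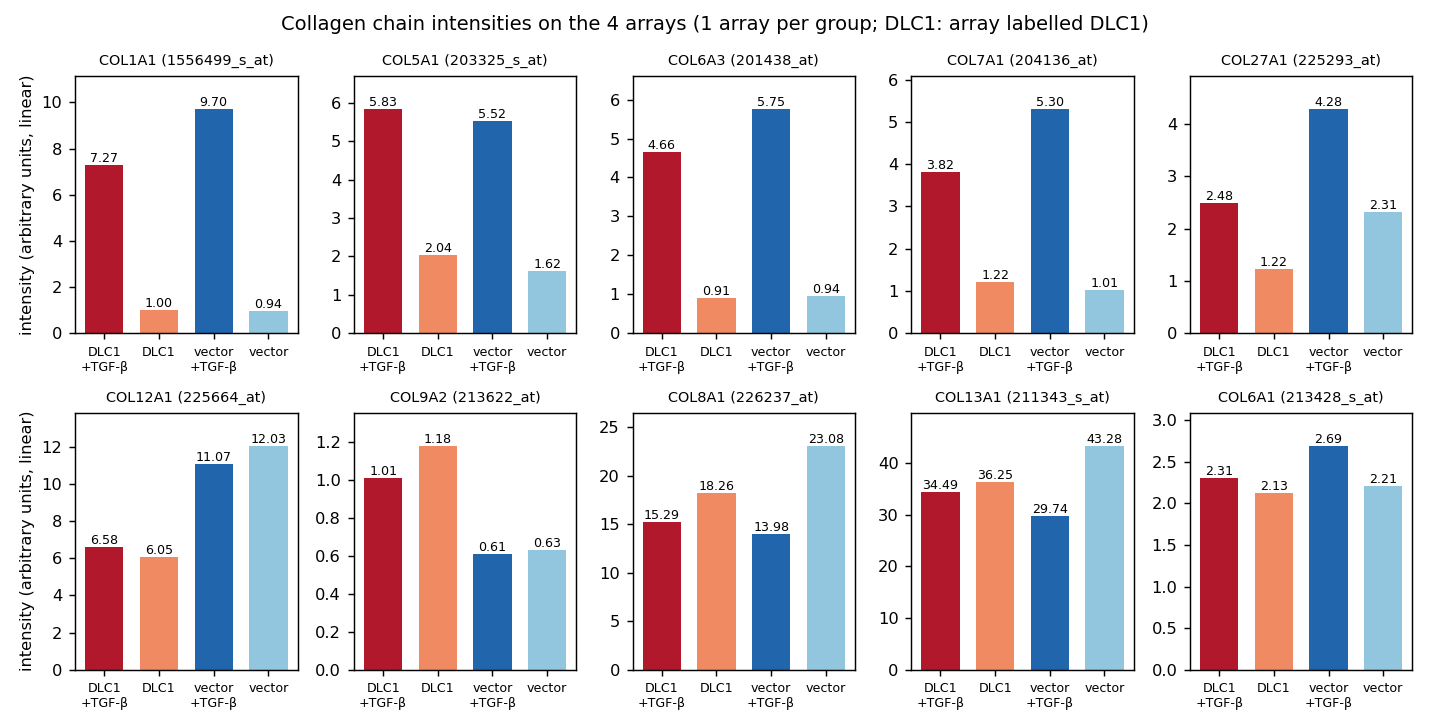
Intensity (arbitrary units, linear axis starting at 0) of the brightest probe set of 10 collagen chain genes on each of the 4 arrays, 1 bar per array, with no error bars because each group is 1 array. COL1A1, COL5A1, COL6A3 and COL7A1 stand high on both arrays with TGF-beta, and COL12A1 stands low on both arrays labelled DLC1, at 6.58 and 6.05 against 11.07 and 12.03.

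The probe sets of a chain did not always move together. All 3 sets of COL5A1 were at least 2-fold higher with TGF-beta in both backgrounds, by 1.51, 2.02 and 1.61 on the log2 scale in the arrays labelled DLC1 and by 1.77, 2.20 and 1.30 in the vector arrays. Both sets of COL7A1 were too, the second, 217312_s_at, by 1.04 and 1.22. Of the 5 sets of COL1A1, 1556499_s_at and 202310_s_at passed 2-fold in both backgrounds, the second by 1.68 and 1.75. That second set read 0.48 with TGF-beta and 0.15 without it in cells labelled DLC1, and 0.74 with TGF-beta and 0.22 without it in vector cells, so it was kept only through the treated arrays where it is high and adds no support. The other 3 stayed short of it: 217430_x_at gave -0.33 and -0.11, 202312_s_at gave 0.40 and 0.08, and 202311_s_at read 0.13 or less on every array. The 2 responding sets of COL27A1 were 225293_at and 225288_at, the second at 1.08 and 1.02, while 225292_at gave -0.08 and 0.11. 225288_at was likewise kept only through its treated arrays and adds no support. Probe sets of 1 gene share their RNA and their array and are not replicates. Counted over probe sets, 10 of 36 were higher in the arrays labelled DLC1, where 0.73% of all 24399 kept probe sets were, and 9 of 36 in the vector arrays, where 1.25% were. Both counts include 202310_s_at and 225288_at, belong to 5 chain genes, and support nothing beyond the counts over genes.

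**Figure D2:**
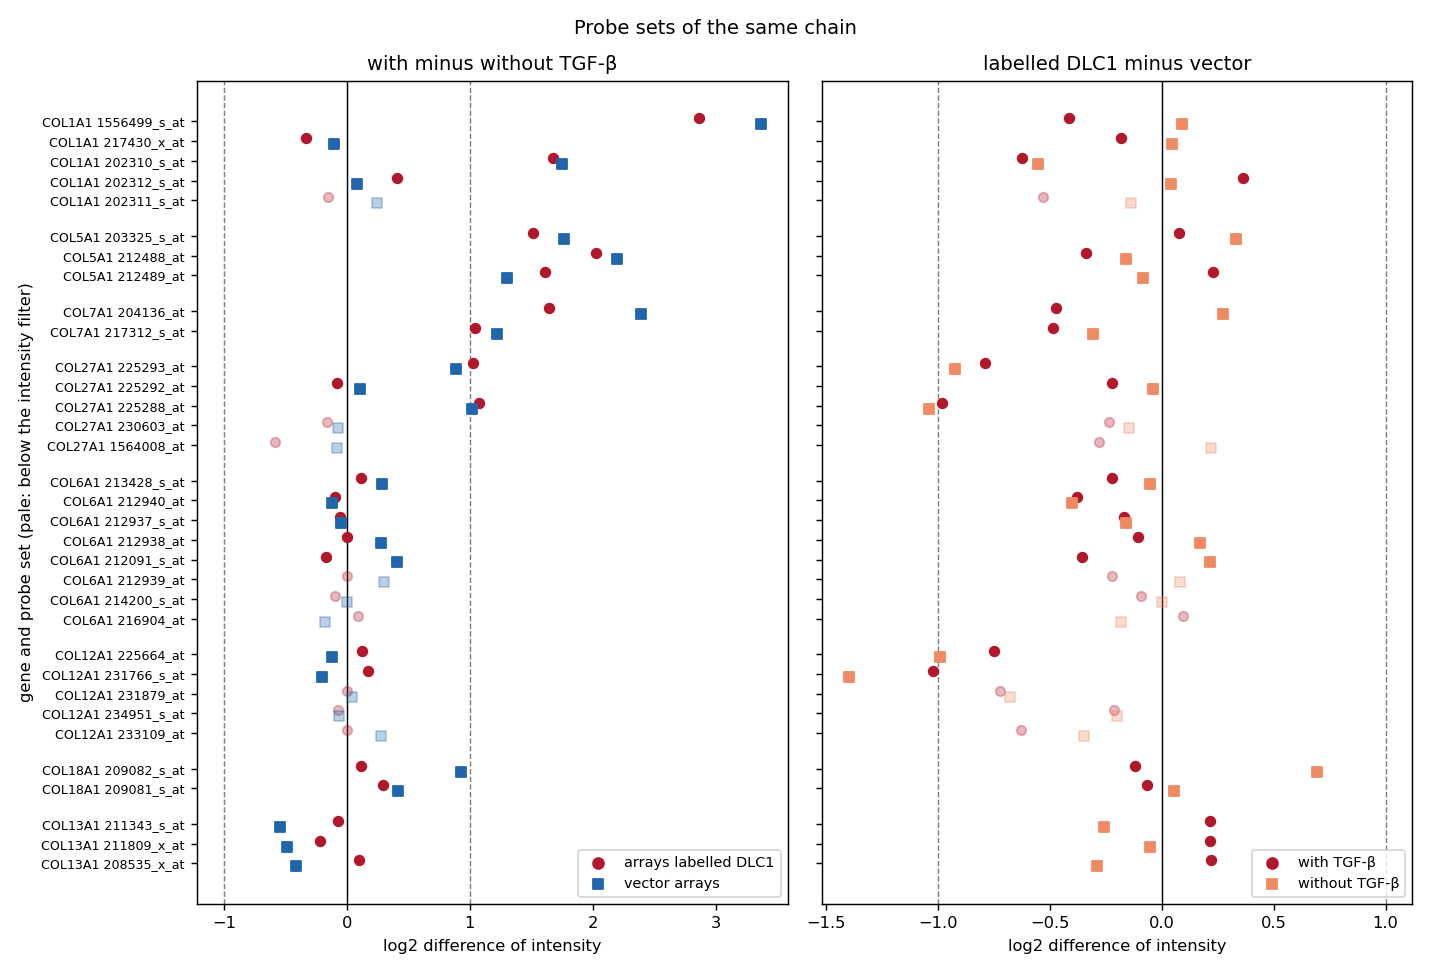
Log2 difference of intensity for each probe set of 8 chain genes, with minus without TGF-beta on the left and arrays labelled DLC1 minus vector on the right, with dashed lines at 2-fold and pale points for sets under the intensity filter. The 3 sets of COL5A1 lie together to the right of 2-fold, whereas those of COL1A1 range from -0.33 to 3.37 in the left panel.

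Promoters are shown for the chains that were higher together, as the sequence just before the start of transcription. Of the 18 kept chains, 13 have an entry in the RefSeq promoter table, which includes COL6A3, COL7A1, COL5A1 and COL27A1 but not COL1A1. The sequences are the 250 bases before the most upstream start in build GRCh38.p14, 5' to 3' on the strand of the gene. Capitals mark any of the motifs CAGAC, the core of the SMAD-binding element, TGACTCA, bound by AP-1, CCAAT and TATAAA, searched on both strands, so that CAGAC also appears as GTCTG and TATAAA as TTTATA. No searched motifs overlapped in the sequences shown.
COL6A3, chr2:237414165-237414414, minus strand: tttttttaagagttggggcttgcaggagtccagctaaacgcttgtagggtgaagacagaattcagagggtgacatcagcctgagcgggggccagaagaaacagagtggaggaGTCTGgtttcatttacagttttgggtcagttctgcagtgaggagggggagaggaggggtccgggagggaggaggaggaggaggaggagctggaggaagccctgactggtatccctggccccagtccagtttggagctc
COL7A1, chr3:48595330-48595579, minus strand: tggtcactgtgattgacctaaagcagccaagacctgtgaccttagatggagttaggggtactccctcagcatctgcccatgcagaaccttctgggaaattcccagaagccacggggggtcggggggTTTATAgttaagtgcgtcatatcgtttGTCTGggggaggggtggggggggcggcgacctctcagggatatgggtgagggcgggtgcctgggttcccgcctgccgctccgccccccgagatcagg
COL5A1, chr9:134641553-134641802, plus strand: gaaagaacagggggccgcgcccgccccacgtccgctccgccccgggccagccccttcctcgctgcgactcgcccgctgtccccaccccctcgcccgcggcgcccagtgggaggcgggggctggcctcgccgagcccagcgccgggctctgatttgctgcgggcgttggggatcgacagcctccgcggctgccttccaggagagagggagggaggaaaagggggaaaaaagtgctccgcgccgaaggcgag
COL27A1, chr9:114155287-114155536, plus strand: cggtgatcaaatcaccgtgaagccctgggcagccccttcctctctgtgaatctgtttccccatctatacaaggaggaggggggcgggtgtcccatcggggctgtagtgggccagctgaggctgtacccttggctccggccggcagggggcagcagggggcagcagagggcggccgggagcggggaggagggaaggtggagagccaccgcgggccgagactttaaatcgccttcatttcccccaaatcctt

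The COL6A3 window holds 1 CAGAC match, its first base at position -138 from the start. The COL7A1 window holds 1 CAGAC match at -97 and a TATAAA match at -124. The windows of COL5A1 and COL27A1 hold none of the 4 motifs, which says only that those letters are not in these windows. CAGAC was present for 2 of these 4 chains and for 4 of the 9 other kept chains with a promoter, where 37.9% of 27305 promoters of the same length hold it. TATAAA was present for 1 of 4 and 2 of 9, against 11.2% of all promoters, and CCAAT for 0 of 4 and 1 of 9, against 33.0%. TGACTCA was found in none of the 13, and in 4.15% of all promoters. A match is a description of letters and not a site of binding.

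Partner chains of the responding collagens were read beside them. COL1A2, which encodes the other chain of collagen I, was read by 3 probe sets that stayed between 0.08 and 0.12 on all 4 arrays, under the 25th percentile of all values, 0.14. Its brightest set, 229218_at, read 0.12 with TGF-beta and 0.11 without it in both backgrounds. The signal of collagen I chains seen with TGF-beta was thus that of COL1A1, with COL1A2 near the floor of the arrays in treated and untreated cells alike. COL3A1, the chain of collagen III that often accompanies collagen I in fibrils, stayed at 0.22 or less in all 5 of its sets.

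In collagen VI, COL6A3 was the chain that was higher. COL6A1 read 2.31 with TGF-beta and 2.13 without it in cells labelled DLC1, and 2.69 with TGF-beta and 2.21 without it in vector cells, log2 differences of 0.12 and 0.28. None of its 8 probe sets differed by 2-fold in either background. COL6A2 read 0.36 with TGF-beta and 0.43 without it in cells labelled DLC1, and 0.34 with TGF-beta and 0.46 without it in vector cells. Its differences were -0.26 and -0.44, and since it passed the filter through the untreated arrays alone, where it is higher, nothing is read from their direction. COL6A5 and COL6A6, the rarer chains that can take the place of COL6A3, read 0.12 or less on every array.

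In collagen V, COL5A2, which encodes the chain that pairs with COL5A1 in the main form of this collagen, read 0.30 with TGF-beta and 0.28 without it in cells labelled DLC1, and 0.34 with TGF-beta and 0.38 without it in vector cells. Its differences were 0.10 and -0.16. COL5A2 passed the filter through the untreated vector array alone, so nothing is read from their direction. COL5A3 stayed at 0.30 or less. COL11A1 and COL11A2, chains of the related collagen XI of cartilage, gave differences of 0.25 and 0.19 in the arrays labelled DLC1 and of -0.47 and 0.02 in the vector arrays. COL11A1 passed the filter through the untreated vector array alone, where it read 0.43.

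**Figure D3:**
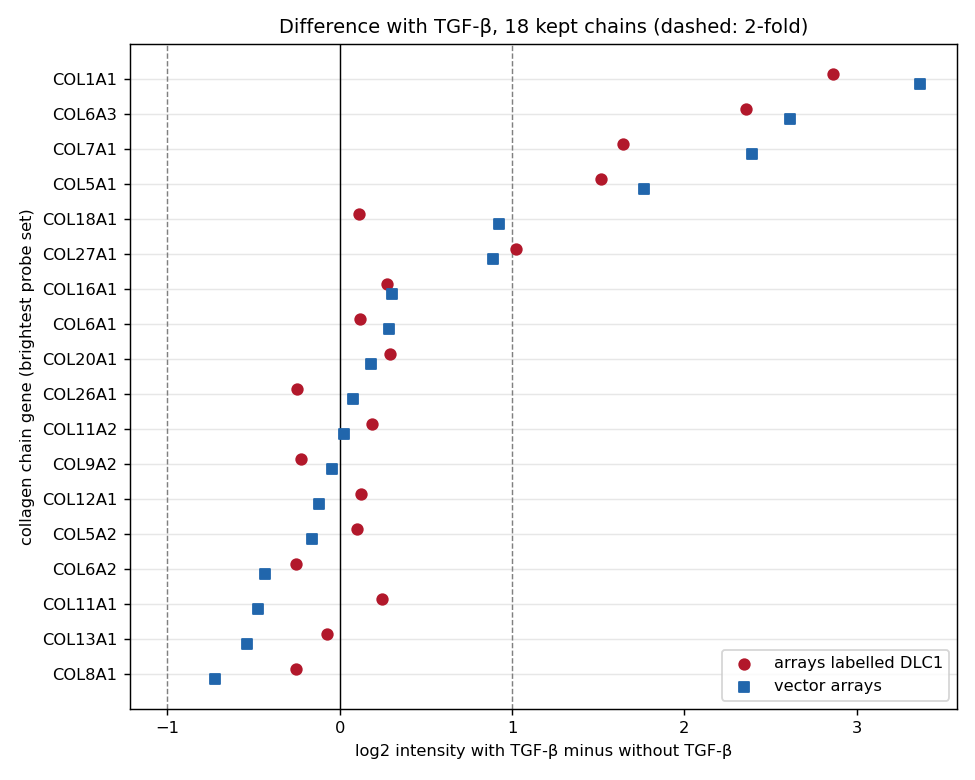
Log2 difference of intensity with minus without TGF-beta for the 18 kept chain genes, with circles for the arrays labelled DLC1, squares for the vector arrays and dashed lines at 2-fold. The same 4 genes, COL1A1, COL6A3, COL7A1 and COL5A1, lie beyond 2-fold in both backgrounds, and 13 chains in the arrays labelled DLC1 and 11 in the vector arrays lie above 0.

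The remaining chains were below 2-fold with TGF-beta. COL8A1, a short chain that forms networks in vessel walls and the eye, read 15.29 with TGF-beta and 18.26 without it in cells labelled DLC1, and 13.98 with TGF-beta and 23.08 without it in vector cells. COL13A1, a transmembrane collagen of cell adhesion sites, read 34.49 with TGF-beta and 36.25 without it in cells labelled DLC1, and 29.74 with TGF-beta and 43.28 without it in vector cells. Both were lowest in treated vector cells, at log2 differences of -0.72 and -0.54, and differed by -0.26 and -0.07 in the arrays labelled DLC1. The other 2 sets of COL13A1 gave -0.22 and 0.10 in the arrays labelled DLC1 and -0.49 and -0.41 in the vector arrays.

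COL18A1, a basement membrane multiplexin whose end fragment is endostatin, read 1.05 with TGF-beta and 0.97 without it in cells labelled DLC1, and 1.14 with TGF-beta and 0.60 without it in vector cells. The untreated vector array was the low one, and the differences were 0.11 and 0.93. Its other set, 209081_s_at, gave 0.29 and 0.42. Of the fibril-associated chains, COL16A1 gave 0.28 and 0.30, COL20A1 0.29 and 0.18, COL12A1 0.12 and -0.12, and COL9A2 -0.22 and -0.05. COL20A1 passed the filter through the treated array labelled DLC1 alone. COL26A1 gave -0.25 and 0.08.

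Over the 18 kept chains, the median response to TGF-beta was 0.15 in the arrays labelled DLC1, with 13 chains above 0, and 0.13 in the vector arrays, with 11 above 0. These figures include COL5A2, COL6A2, COL11A1 and COL20A1, which passed the filter only through the arrays where they are high. The same chains enter the later medians and counts over the 18 chains. Over all kept genes the medians were -0.01 and -0.03, and 46.0% and 43.3% of genes lay above 0. With arrays centred on housekeeping genes the chain medians were -0.03 and 0.03, and those of all kept genes -0.19 and -0.13. These 2 differences share no array. Of the chains, 4 were at least 2-fold higher in both, and of all 13137 kept genes 82 were. At a looser limit of 1.5-fold, 5 chains were higher and 0 lower in the arrays labelled DLC1, beside 2.31% and 1.06% of all kept genes, and 6 were higher and 1, COL8A1, lower in the vector arrays, beside 3.15% and 2.91%. In these bulk samples, more cells that express a gene and more RNA per cell cannot be told apart.

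**Figure D4:**
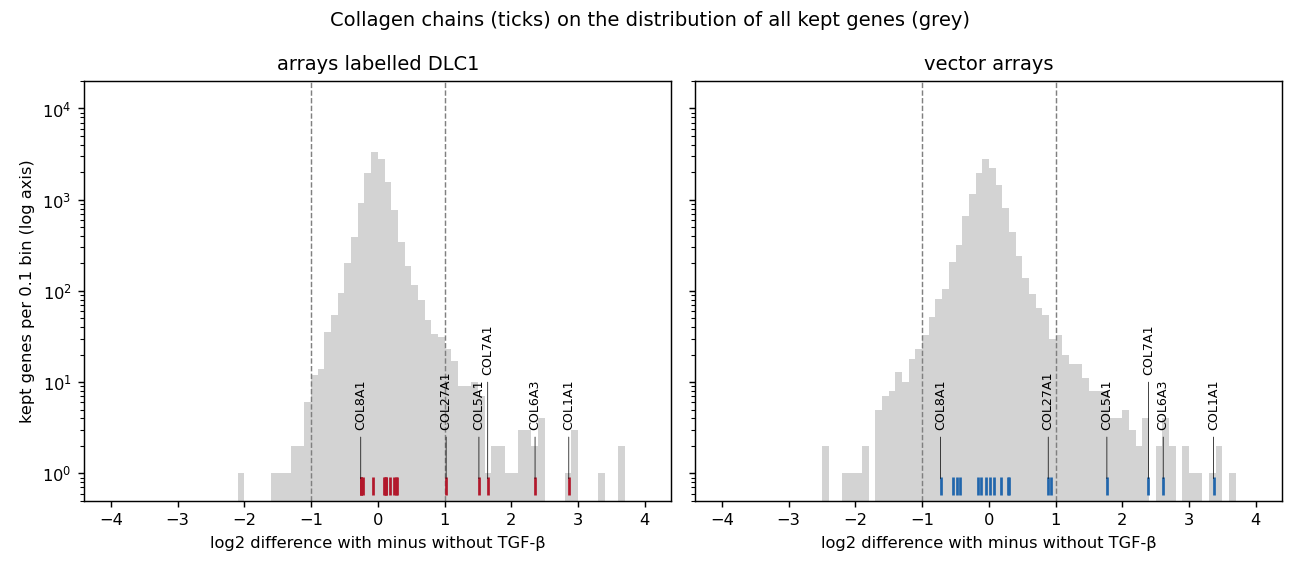
Number of kept genes (grey, log axis) by log2 difference with minus without TGF-beta in bins of 0.1, for the arrays labelled DLC1 on the left and the vector arrays on the right, with the 18 kept collagen chains as coloured ticks and dashed lines at 2-fold. COL1A1, at 2.86 and 3.37, and COL6A3, at 2.36 and 2.61, sit in the sparse upper tail.

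The size of the response was set side by side in the 2 backgrounds, without a test. No chain differed between them by 2-fold, taking the response in cells labelled DLC1 minus the response in vector cells, where 0.190% of all kept genes were higher by 2-fold and 0.175% lower. All 4 chains that responded in both backgrounds had the smaller response in the arrays labelled DLC1, by -0.74 for COL7A1, -0.51 for COL1A1, -0.26 for COL6A3 and -0.25 for COL5A1 on the log2 scale. Over all kept genes, 46.0% lay below 0 in this difference. With the kept probe sets of a gene averaged, the values of these 4 chains were -0.46, -0.12, -0.26 and -0.04. The smaller response in the arrays labelled DLC1 did not hold for every probe set, since 212489_at of COL5A1 gave 1.61 there and 1.30 in the vector arrays. COL18A1 had the lowest value, -0.81, and COL11A1 the highest, 0.72, which rests on values between 0.27 and 0.43. The other set of COL18A1, 209081_s_at, gave -0.12, and the kept sets of COL18A1 averaged gave -0.47. Since COL11A1 was kept only through the untreated vector array, nothing is read from its value. At 1.5-fold, COL11A1 was higher and COL18A1 and COL7A1 lower, beside 1.79% and 1.29% of all kept genes. Over the 18 chains the median was 0.04, with 9 above and 9 below 0.

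Between the arrays labelled DLC1 and vector, no kept chain reached 2-fold, either with or without TGF-beta. Of all kept genes, 1.46% were higher and 1.64% lower with TGF-beta, and 1.63% and 2.34% without it. COL12A1, a fibril-associated collagen that bridges fibrils in tissues under tension, came closest without TGF-beta, and COL27A1 with it. COL12A1 read 6.58 in the array labelled DLC1 and 11.07 in the vector array with TGF-beta, and 6.05 and 12.03 without it. Both arrays labelled DLC1 lay below both vector arrays, with log2 differences of -0.75 and -0.99. The second kept set of COL12A1, 231766_s_at, read 0.71 and 1.44 with TGF-beta and 0.63 and 1.66 without it. These are differences of -1.02 and -1.40 that both pass 2-fold. The 3 dim sets gave differences between -0.72 and -0.20, all below 0. Counted over probe sets, 1 of 36 was lower with TGF-beta and 2 of 36 without it, the second being 225288_at of COL27A1, which was under the filter on both untreated arrays, beside 1.53% and 1.95% of all kept probe sets. With the kept sets of a gene averaged, COL12A1 was 2-fold lower without TGF-beta, at -1.19.

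COL27A1 was lower in the arrays labelled DLC1 in both states, by the values given above, with log2 differences of -0.79 with TGF-beta and -0.92 without it. Its set 225288_at read 0.38 in the array labelled DLC1 and 0.75 in the vector array with TGF-beta, and 0.18 and 0.37 without it, differences of -0.98 and -1.04. Its set 225292_at gave -0.22 and -0.04. COL9A2, a chain of the cartilage collagen IX, was the chain that stood highest in the arrays labelled DLC1. It read 1.01 in the array labelled DLC1 and 0.61 in the vector array with TGF-beta, and 1.18 and 0.63 without it, with no overlap between the backgrounds. Its differences were 0.73 and 0.91, and its other set was dim, at 0.17 or less.

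The 4 chains that were higher with TGF-beta in both backgrounds stayed under 1.5-fold between the backgrounds. With TGF-beta the differences of COL7A1, COL1A1, COL6A3 and COL5A1 were -0.47, -0.42, -0.30 and 0.08, and without it they were 0.27, 0.09, -0.05 and 0.33. COL8A1 and COL13A1 gave 0.13 and 0.21 with TGF-beta, and -0.34 and -0.26 without it. Over the 18 chains the median was -0.04 with TGF-beta and -0.05 without it, beside -0.02 and -0.03 over all kept genes, and 9 and 8 chains lay above 0. At 1.5-fold, COL9A2 was higher and COL12A1 and COL27A1 were lower in both states, while COL18A1 was higher and COL11A1 lower without TGF-beta. The other set of COL18A1, 209081_s_at, gave 0.06 without TGF-beta. COL11A1 passed the filter only through the untreated vector array, where it is high, so nothing is read from its direction. At that limit 5.91% of all kept genes were higher and 6.71% lower with TGF-beta, and 5.84% and 8.89% without it.

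**Figure D5:**
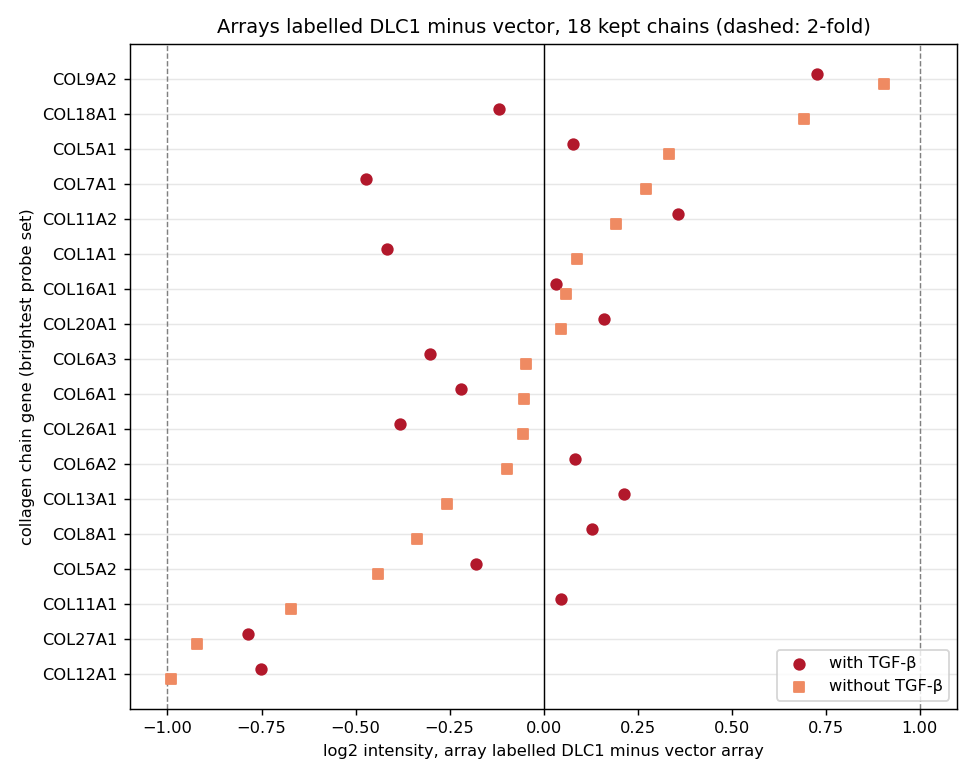
Log2 difference of intensity, array labelled DLC1 minus vector array, for the 18 kept chain genes, with circles for arrays with TGF-beta, squares for arrays without it and dashed lines at 2-fold. COL12A1 and COL27A1 lie lowest in both states and COL9A2 highest, and no chain crosses 2-fold.

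The 19 chain genes that were not kept read between 0.07 and 0.33 in their brightest sets. They were COL1A2, COL2A1, COL3A1, COL5A3 and COL24A1 of the fibrillar class, COL9A1, COL9A3, COL14A1, COL19A1, COL21A1 and COL22A1 of the fibril-associated class, COL6A5 and COL6A6, COL8A2 and COL10A1, the transmembrane chains COL23A1 and COL25A1, COL15A1 and COL28A1. By class, 6 of 11 fibrillar chains were kept, 4 of 10 fibril-associated chains, 3 of 5 chains of collagen VI, 1 of 3 short network chains, 1 of 3 transmembrane chains, 1 of 2 multiplexins and the chain of collagen VII. COL20A1 and COL5A2, both with a highest value of 0.38, lay just inside the filter. COL15A1, a multiplexin, lay just outside it, with 0.12 in the array labelled DLC1 and 0.19 in the vector array with TGF-beta, and 0.15 and 0.33 without it.

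Collagen IV, the network collagen of basement membranes, was set beside these chains. COL4A1 and COL4A2 were higher with TGF-beta by 3.31 and 2.20 on the log2 scale in the arrays labelled DLC1 and by 3.08 and 2.33 in the vector arrays. Of the 5 kept collagen IV chains, 3 were at least 2-fold higher in the arrays labelled DLC1 and 4 in the vector arrays, where 0.792% and 1.21% of all kept genes were. The medians were 1.05 and 1.25, each the value of COL4A4. In the vector arrays both values of COL4A3 and the untreated value of COL4A4 lie under the filter, so the count of 4 leans on dim signals. Between backgrounds, COL4A3 and COL4A4 were 2-fold higher in the arrays labelled DLC1 in both states. COL4A3 read 1.24 in the array labelled DLC1 and 0.23 in the vector array with TGF-beta, and 0.73 and 0.10 without it, so it was kept only through the arrays where it is high. COL4A4 read 1.72 and 0.64 with TGF-beta, and 0.83 and 0.27 without it, so its difference without TGF-beta rests on 1 value under the filter. The collagen IV chains were not tested against the others.

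Genes that modify, export, process and bind collagen were described by fixed lists. Of 18 kept genes that hydroxylate, glycosylate or fold collagen, 0 differed by 2-fold with TGF-beta in either background, and the medians were 0.05 in the arrays labelled DLC1 and 0.17 in the vector arrays. P4HA2, a catalytic subunit of prolyl 4-hydroxylase, gave 0.48 and 0.96, and SERPINH1, the collagen chaperone HSP47, gave 0.12 and 0.44. None of 8 kept genes of collagen export, 5 of procollagen processing and 5 lysyl oxidases passed 2-fold with TGF-beta either. In the arrays labelled DLC1, 0.792% of all kept genes were 2-fold higher and 0.107% lower. In the vector arrays 1.21% were higher and 0.693% lower. At such shares, counts of 0 in lists of this size say little about the lists. LOX, the crosslinking lysyl oxidase, read 27.66 with TGF-beta and 20.40 without it in cells labelled DLC1, and 24.11 with TGF-beta and 17.13 without it in vector cells.

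Of 8 kept collagen receptor genes none passed 2-fold with TGF-beta. Beside this and the counts that follow, 0.792% of all kept genes were higher and 0.107% lower in the arrays labelled DLC1. In the vector arrays 1.21% were higher and 0.693% lower. ITGA2, the integrin subunit that binds collagen I, gave 0.99 in the arrays labelled DLC1, the closest there, and 0.54 in the vector arrays, where MRC2, an endocytic collagen receptor, was closest at 0.85. Of 9 kept fibril organisers, TGFBI was higher in both backgrounds, by 2.13 and 2.31, THBS1 in the arrays labelled DLC1, by 1.21, and FN1, which encodes fibronectin, in the vector arrays, by 1.38. Among 6 kept collagen-degrading enzymes, FAP was higher in the vector arrays, by 1.18, resting on values of 0.50 and 0.22. It was kept only through the first of these values, so nothing is read from its direction. MMP1, the interstitial collagenase, gave 0.04 and -0.05.

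Between the arrays labelled DLC1 and vector, the members of these lists that passed 2-fold were ADAMTS3, MMP8, TNC, LOXL1, FAP, THBS1 and SPARC. ADAMTS3, a procollagen N-proteinase, was lower by -1.40 with TGF-beta and -1.18 without it, and MMP8, a collagenase known from neutrophils, by -1.51 and -2.21. TNC, which encodes tenascin C, was lower by -1.07 and -1.40. LOXL1, a lysyl oxidase, was lower in the treated array labelled DLC1, by -1.18, as was FAP, by -1.0, and THBS1 and SPARC were lower without it, by -1.68 and -1.07. MMP8 and ADAMTS3 passed the filter of 0.38 only through the vector arrays, and FAP only through the treated vector array, where they are high. Nothing is read from the direction of these genes. The difference of SPARC rests on 1 value under 0.38. Shares of all kept genes at 2-fold were 1.46% higher and 1.64% lower with TGF-beta, and 1.63% and 2.34% without it.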

How the data were processed

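Messenger RNA of SCP2 cells was measured on 4 expression arrays, 1 per group, and samples were grouped by the labels alone. The authors deposited linear-scale intensities for 54675 probe sets, given to 2 decimals and spanning 0.05 to 265.58. Per the submitters' processing notes RMA was used, with no version or settings. The divisor of the scale is not given in the sources used here. RMA equalises the arrays and hides any shift common to most genes.

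From these values, log2 was taken and differences formed between arrays. Names came from the platform annotation: 41097 have 1 symbol, 1801 have several and 11777 are unnamed here. Genes were represented by their brightest set, 19775 in all, and 13137 were kept. With 1 array a group no test was run, and a call is a size of 2-fold. Named chains were all members that were kept, with the values on each array for those that differed most and the others by range. The members, gene lists and motifs were chosen with earlier results of these data known. Of the fixed list genes, COL17A1 and others without a probe set of 1 symbol were not analysed here. The fold rule was tested on simulated data. Alternatives were other probe set choices, filters, an offset of 0.1, cyclic loess, centring on 11 housekeeping genes and 1.5-fold. Python 3.11.15, numpy 2.4.6, pandas 2.3.3, matplotlib 3.10.9, R 4.3.3 and limma 3.58.1 were used.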

Additional observations from a re-analysis of the deposited data

How the results depend on the processing

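No paired analysis was possible because each group holds 1 array, and no array could be left out for the same reason. No chain past 2-fold changed sign under the alternatives run. Of 605 values of single chains under an alternative, 601 stayed on the same side of 2-fold, and the exceptions are COL27A1 and COL12A1 as given above. A changed filter leaves the value of a kept chain as it was, and averaging does so for a chain with 1 kept set. Part of this agreement was therefore fixed in advance, and the count does not measure robustness. Counted per probe set, sets higher with TGF-beta were 10 in the arrays labelled DLC1 and 9 in the vector arrays, and sets lower in the arrays labelled DLC1 were 1 with TGF-beta and 2 without it. At 1.5-fold, with TGF-beta 1 chain was lower in the vector arrays. At 1.5-fold between backgrounds, 1 chain was higher and 2 lower with TGF-beta, and 2 were higher and 3 lower without it, while 1 response was larger and 2 were smaller in the arrays labelled DLC1 than in the vector arrays. COL11A1, kept only through the untreated vector array, is among the 3 lower chains and is the larger response. With kept sets averaged, 1 chain was lower without TGF-beta in the arrays labelled DLC1. With no filter, 1 chain, COL21A1, was higher and 1, COL15A1, lower there, and neither exceeded 0.33 on any array. Centring on housekeeping genes moved the median of all genes with TGF-beta by -0.18 in the arrays labelled DLC1 and -0.10 in the vector arrays, and the median of the chains in the arrays labelled DLC1 to -0.03. It also turned the chain median between backgrounds without TGF-beta to 0.04. The chain median with TGF-beta in the vector arrays was 0.0 with no filter and 0.28 with the filter on the mean. The chain median between backgrounds with TGF-beta was -0.18 when sets outside _x_at and _s_at were used for the chains that have such a set. COL1A1, COL13A1 and COL18A1 have none and kept their _s_at sets, so COL1A1 was not checked in this way. Per probe set the median was -0.17. The median difference between the responses ran from -0.17 to 0.06, on both sides of 0. Dim signals and rounding limit the low chains most.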

Other observations

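Probe sets that the choice of members left out were read beside the chains. The antisense transcript COL18A1-AS1 read 0.30 with TGF-beta and 0.30 without it in cells labelled DLC1, and 0.32 with TGF-beta and 0.33 without it in vector cells, so it lay under the filter on every array. DDR1, a receptor tyrosine kinase that binds collagen, is measured by 4 probe sets annotated to it together with a microRNA gene. These were higher with TGF-beta by between 0.34 and 0.70 on the log2 scale in the arrays labelled DLC1 and by between 0.33 and 0.72 in the vector arrays, short of 2-fold in all 8 differences. The same 4 sets were higher in the arrays labelled DLC1 than in the vector arrays by between 0.32 and 0.49 with TGF-beta and by between 0.32 and 0.61 without it.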
